A study of Mus musculus with 6 samples.

Results

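The genes described are those of DNA replication and S phase, a set of 55 named genes that make, start and run the replication fork, supply its nucleotides, control entry into S phase or restore chromatin behind the fork. A gene was measured where an array feature was paired with its symbol alone, and the feature with the highest mean signal was used where there were several. This gave 53 of the 55 members, among 22180 genes measured in all. Rfc4 and Ccne2 were left out because their features also named a second gene. The 6 arrays held RNA from J774A.1 cells, a BALB/c mouse macrophage-like line. The 3 NPFF arrays came from cells given 1 nM neuropeptide FF, an amidated peptide of the RF-amide family, in phosphate-buffered saline for 18 h. The 3 control arrays came from cells given the saline vehicle for 18 h, though their titles call them non-treated. All cells grew in RPMI-1640 with fetal calf serum, and no group was of primary macrophages. The titles call the replicates biological, but the labels do not say whether cultures were made on separate days, and the p-values below cover no spread beyond that between these arrays.

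A replication origin is bound by the origin recognition complex, which with Cdc6 and Cdt1 loads the ring-shaped Mcm2 to Mcm7 helicase in G1 phase. Cyclin-dependent kinase 2 and the Cdc7 kinase then convert the loaded ring into an active helicase with Cdc45 and the GINS complex, and polymerases, the Pcna clamp and ligase copy the strands. Many of these genes are transcribed by E2F factors at the G1 to S boundary, so their transcripts are commonly read as a mark of proliferation. In bulk RNA, a larger share of cells in S phase and more transcript in each such cell cannot be told apart.

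Values are quantile-normalized log2 intensities, and differences are NPFF minus control on that scale, so that a difference of 1 is a doubling of signal. Standard errors (SE) come from the moderated limma fit over all genes. Control 1 stood apart from the other arrays. As deposited, its interquartile range of signal was 2.04 log2, against 2.31 to 2.41 in the other 5 arrays. After quantile normalization, control 1 was the lowest of the 6 arrays for 48.8% of all genes. Differences of members are therefore given with and without it. The 10 macrophage markers, among them Cd68, Lyz2 and Csf1r, all lay above the median of all genes by signal, the lowest at the 58.8th percentile. Of 16 measured fibroblast, epithelial and lymphocyte markers, 4 lay above it and none above the 62.7th percentile. The mean of the lymphocyte markers was 5.63 to 5.76 in controls and 5.62 to 5.72 in NPFF arrays. That of the fibroblast markers was 6.01 to 6.13 and 6.09 to 6.17. That of the epithelial markers was 5.98 to 6.19 and 6.10 to 6.14. The labels and the table name no slide, scan or processing batch.

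Replication genes were higher in the NPFF arrays in 45 of 53 cases, by small amounts. The median difference was 0.16 and the range -0.14 to 0.58, against a median of 0.00 over all genes, of which 51.7% were higher. The mean over the members was 8.80, 9.10 and 9.11 in controls 1, 2 and 3 and 9.18, 9.21 and 9.13 in the NPFF arrays. All 3 NPFF arrays lay above all 3 controls on this mean, NPFF 3 lay closest to the controls, and control 1 lay far below the other 5. The group means were 9.004 ± 0.175 (SD, n = 3) and 9.18 ± 0.04 (SD, n = 3). Among individual members, 18 had every NPFF array above every control and 1, Orc2, had every NPFF array below. Over all genes these shares were 3.67% and 4.92%.

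No member passed the test. By limma, 0 of 53 members had an adjusted p under 0.05, as did 0% of all genes. At an unadjusted p under 0.05 there were 2 members, or 3.77%, against 2.51% of all genes. They were the GINS subunit Gins3 and the thymidine kinase Tk1, both higher in NPFF, as were 0.834% of all genes at that level. The members had strong signal, with a median at the 85.2nd percentile of all genes, so the 3199 genes within their interquartile range of signal were set beside them. Of those, 60.5% were higher in NPFF, the median difference was 0.04, 7.91% were higher with no overlap between groups and 8.1% were lower with none. An unadjusted limma p under 0.05 was reached by 5.25% of them, in either direction, a larger share than among the members. The count of 18 depends on the scaling. With the values as deposited it was 7, or 13.2% of members, against 2.57% of all genes, and with arrays centred on their medians it was 2, or 3.77%, against 1.65%. With cyclic loess it was 19, or 35.8%, against 5.31% of all genes, and 15 of these members were among the 18. Gins3 and Tk1 had no overlap under each of these scalings. With each array weighted by how closely it followed the rest, limma called 2 members, Gins3 at 0.28 and the CAF-1 subunit Chaf1b at 0.17 (adjusted p = 0.0411 for each), both higher. This fit called 5.08% of all genes in either direction and 1.88% as higher, and 0 members were called with weights fitted gene by gene. The weights of controls 1, 2 and 3 were 0.0773, 0.382 and 22.6, so the calls rest almost wholly on control 3 as the control.

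**Figure D1:**
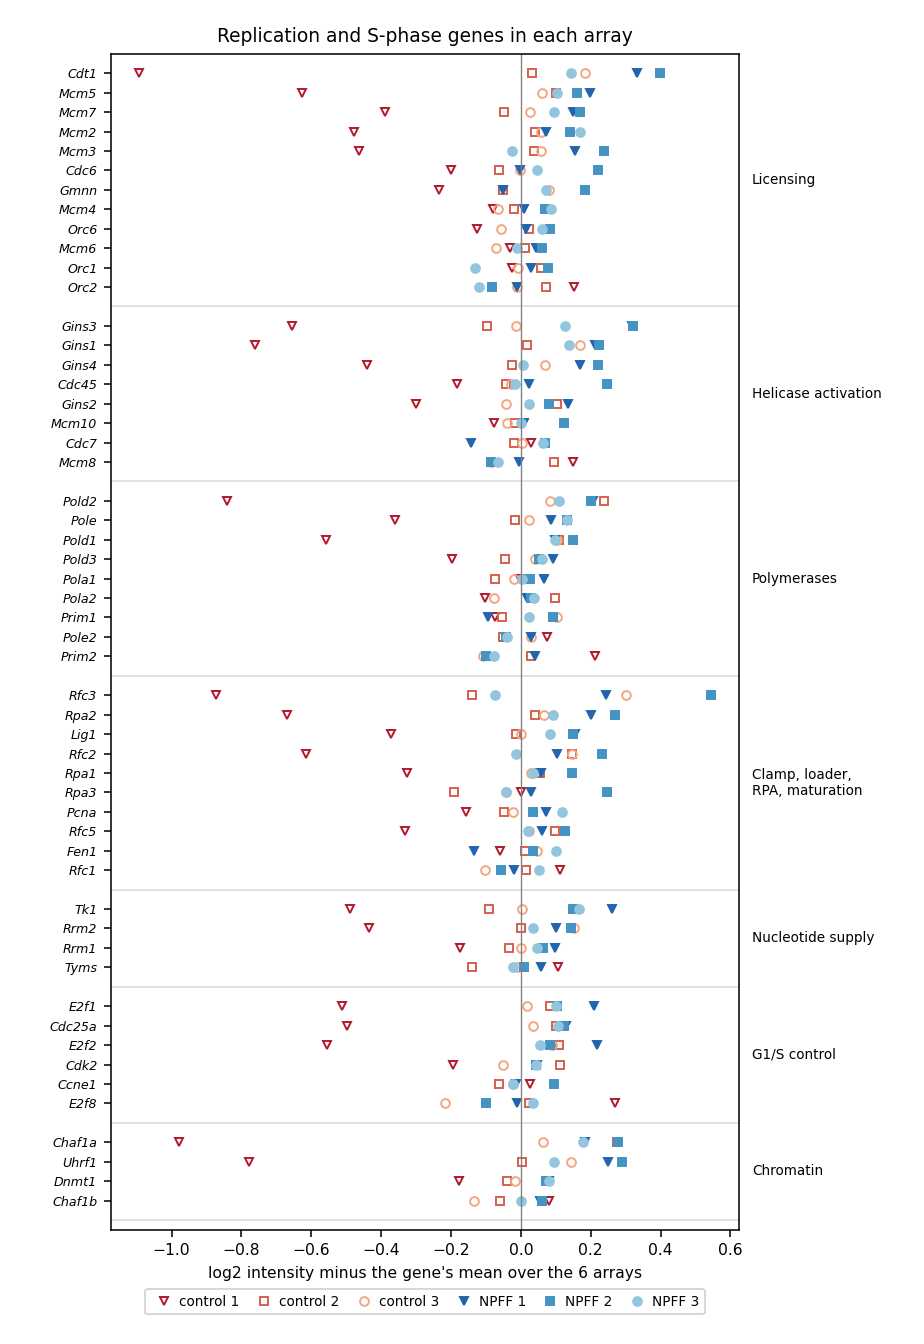
Each row is a member, grouped by role and sorted by difference, and each symbol is an array; the x axis is the log2 intensity minus that gene's mean over the 6 arrays. Control 1 (open red triangles) lies at the far left for most rows, while controls 2 and 3 lie close to the NPFF arrays (filled blue symbols).

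The set was also compared with each control array by itself. Against control 1 the median difference over members was 0.29, against control 2 it was 0.07 and against control 3 it was 0.08. The same medians over all genes were 0.07, -0.04 and 0.00, and over genes of like signal 0.15, -0.03 and -0.01. The NPFF mean was above control 1 for 43 members, above control 2 for 39 and above control 3 for 43. Over all genes, 62.6%, 35.8% and 48% were above. All 3 NPFF arrays lay above control 3 for 32 members, where 22.8% of all genes did so, and above control 2 for 31, where 20% did. Against control 1 they did so for 39 members, where 51.7% of all genes did. All 3 lay below control 1, 2 and 3 for 8, 5 and 3 members, where 28.8%, 43.7% and 26.8% of all genes did. These 3 comparisons share the same NPFF arrays, and a difference from a single array has no replicate check. Control 3 minus control 2 had a median of 0.02 over the members, against -0.04 over all genes and -0.01 over genes of like signal. The members thus also differed from all genes between these control arrays.

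**Figure D2:**
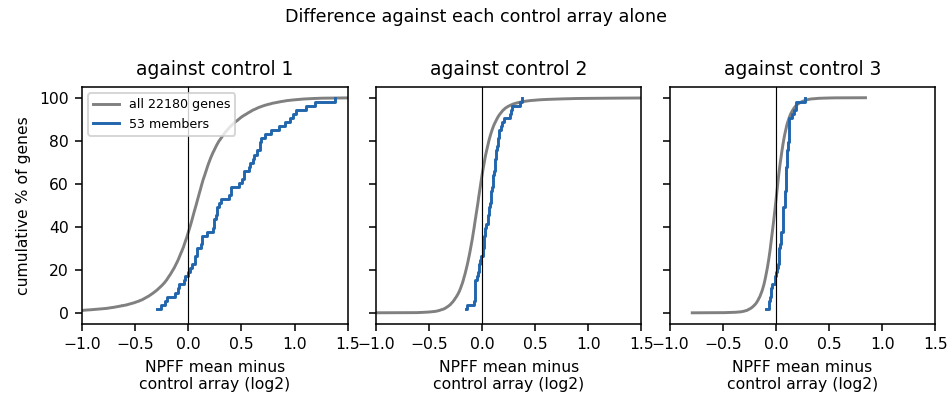
Each panel sets the mean of the 3 NPFF arrays against a single control array; the x axis is the log2 difference and the y axis the cumulative percentage of genes at or below it, for all genes (grey) and the 53 members (blue). The blue line lies to the right of the grey line in each panel, with medians of 0.29, 0.07 and 0.08 for the members and 0.07, -0.04 and 0.00 for all genes.

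Members of origin licensing lay higher with NPFF for 10 of 12 genes, with a median difference of 0.16 that was 0.07 without control 1. The 2 others were subunits of the origin recognition complex. Orc2 read 9.12, 9.04 and 8.95 in the controls, against 8.95, 8.88 and 8.84 with NPFF, a difference of -0.14 (SE 0.07), or -0.10 without control 1. Control 3 and NPFF 1 all but touched, and the groups overlapped with arrays scaled by cyclic loess or centred on medians. Orc1, the ATPase subunit, had a difference of -0.02 (SE 0.08) and Orc6 one of 0.11 (SE 0.07), or -0.03 and 0.07 without control 1. The loading factors had larger values. Cdt1, which brings the helicase to the origin and is destroyed once S phase begins, read 8.33, 9.45 and 9.605 in the controls, against 9.75, 9.82 and 9.57 with NPFF. Its difference of 0.58 (SE 0.33) was the largest of any member, or 1.5-fold, and was 0.18 without control 1. Control 1 lay far below the other 5 arrays, and NPFF 3 lay below control 3, so the groups overlapped. Cdc6, the loading ATPase, differed by 0.18 (SE 0.09) and Gmnn, which encodes the Cdt1 inhibitor geminin, by 0.14 (SE 0.10), or 0.12 and 0.05 without control 1.

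The 6 subunits of the helicase ring were each higher in NPFF, with a median difference of 0.25, or 0.08 without control 1. Mcm7 read 9.81, 10.15 and 10.23 in the controls, against 10.35, 10.37 and 10.30 with NPFF, a difference of 0.27 (SE 0.12), or 0.15 without control 1. Mcm4 read 10.20, 10.26 and 10.22 and then 10.29, 10.35 and 10.37. Its difference of 0.11 (SE 0.06) was nearly the same without control 1, at 0.10, and control 1 lay close to the other controls here. Mcm5 read 9.78, 10.51 and 10.47 in the controls, against 10.60, 10.57 and 10.51 with NPFF. Its difference of 0.31 (SE 0.19) shrank to 0.07 without control 1, and NPFF 3 and control 2 were 0.002 apart. Mcm2 read 9.35, 9.86 and 9.88 and then 9.90, 9.97 and 10.00, a difference of 0.25 (SE 0.15), or 0.08 without control 1. Mcm3 and Mcm6 overlapped between groups, with differences of 0.25 (SE 0.16) and 0.06 (SE 0.06), or 0.08 and 0.06 without control 1. Control 1 was the lowest array for 5 of the 6 subunits, all but Mcm6, and its distance from controls 2 and 3 ranged from slight for Mcm4 to wide for Mcm5.

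**Figure D3:**
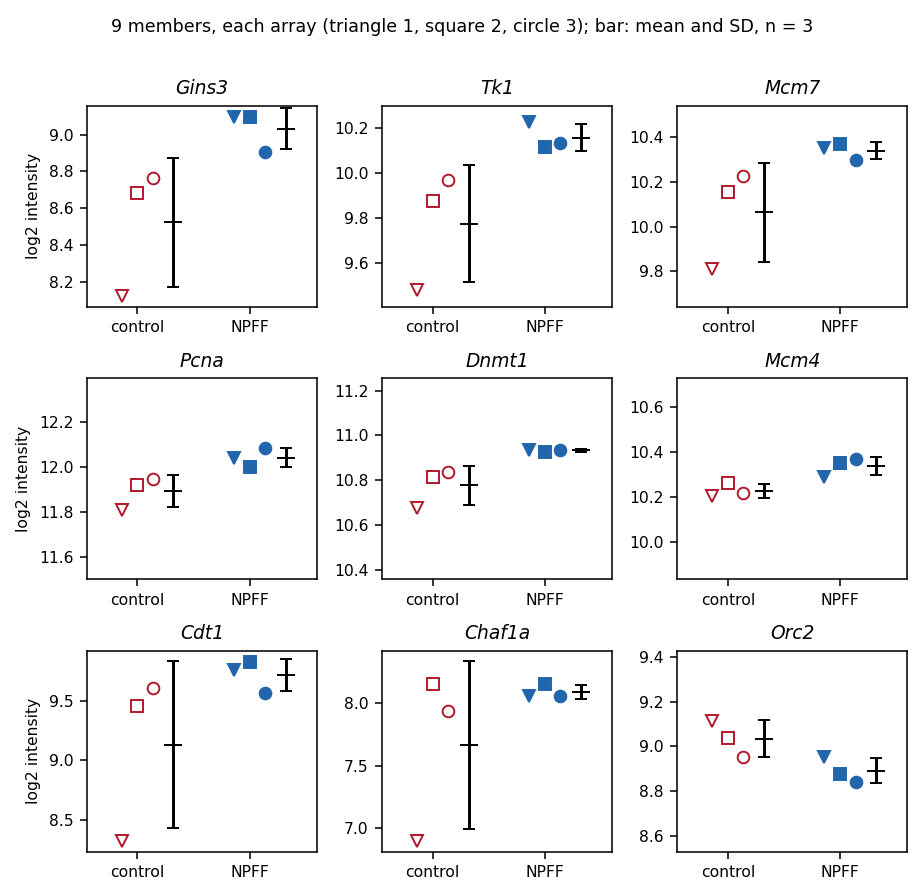
Log2 intensity of 9 members in each array, controls in red and NPFF in blue, with replicate 1 as a triangle, 2 as a square and 3 as a circle; bars show the mean and SD of 3 arrays, and y axes differ between panels. Gins3, Tk1, Mcm7, Pcna, Dnmt1 and Mcm4 have all NPFF arrays above all controls, Cdt1 and Chaf1a overlap, with control 1 far below the rest, and Orc2 runs the other way.

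The promoters of the members were read from RefSeq windows on GRCm38.p6, each 300 bases long and lying mostly upstream of a transcript start. Such windows were found for 46 of the 55 members. They were searched on both strands for TTTGGCGC, TTTCCCGC, TTTCGCGC and TTTGCCGC, 4 spellings of the E2F binding element. At least 1 of them was present for 20 of 46 members, or 43.5%, against 3.29% of 17491 protein-coding genes. Counted by window, the share was 35.1% of 57 member windows and 2.26% of all 32851 windows. CCAAT was present for 65.2% of members and 42.3% of protein-coding genes, and the GC box GGGCGG for 80.4% and 49.2%. The letters are shown for 2 subunits of the ring and for Gins3, which hold them, and for Rpa2, which had no overlap between groups but does not hold them. The stretches are the last 150 bases upstream of the annotated gene, 5′ to 3′ on the gene's strand, with E2F letters in capitals.
Mcm5, chr8:75109318-75109467, plus strand, no overlap: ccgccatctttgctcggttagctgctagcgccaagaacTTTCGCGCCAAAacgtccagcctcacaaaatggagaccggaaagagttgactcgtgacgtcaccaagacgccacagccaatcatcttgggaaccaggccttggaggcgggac
Mcm6, chr1:128359706-128359855, minus strand, overlap: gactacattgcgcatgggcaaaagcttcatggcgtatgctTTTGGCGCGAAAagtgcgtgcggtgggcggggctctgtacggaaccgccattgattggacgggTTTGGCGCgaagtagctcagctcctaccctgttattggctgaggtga
Gins3, chr8:95633409-95633558, plus strand, no overlap: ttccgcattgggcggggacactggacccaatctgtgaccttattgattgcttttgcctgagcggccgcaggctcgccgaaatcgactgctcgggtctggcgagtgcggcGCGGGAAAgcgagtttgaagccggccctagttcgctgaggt
Rpa2, chr4:132768210-132768359, plus strand, no overlap: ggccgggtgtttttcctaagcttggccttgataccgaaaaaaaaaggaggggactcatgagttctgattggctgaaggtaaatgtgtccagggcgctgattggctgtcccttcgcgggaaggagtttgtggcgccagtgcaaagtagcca
In Mcm5 and in the first run of Mcm6, 2 spellings on opposite strands share 4 bases, and Mcm6 holds a further match nearer the start. The measured members with E2F letters had a median difference of 0.23 (17 of 20 higher) and those with a window but no such letters one of 0.14 (21 of 25 higher). Without control 1 both medians were 0.07. NPFF was higher with no overlap for 8 members with the letters, or 40%, and for 8 without them, or 32%, against 3.67% of all genes. Differences ran from -0.11 to 0.58 with the letters and from -0.14 to 0.43 without them. The 4 genes shown are examples and do not stand for either of these groups. Mcm6 has the most matches of the 4 genes shown and the smallest difference, 0.06 with or without control 1. Rpa2 holds none of the 4 spellings and had a difference of 0.38, or 0.14 without control 1. The match is a matter of letters in a window, and no binding was measured.

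Genes that turn the loaded ring into a working helicase, grouped here with Mcm8, were higher in 6 of 8 cases. Their median difference was 0.16, or 0.09 without control 1. Gins3, a subunit of the GINS complex that joins the helicase, read 8.12, 8.68 and 8.76 in the controls, against 9.10, 9.10 and 8.90 with NPFF. The lowest NPFF array lay 0.14 above the highest control. Its difference was 0.51 (SE 0.17), or 1.42-fold, and 0.31 without control 1, from group values of 8.52 ± 0.35 and 9.03 ± 0.11 (SD, n = 3 each). The other GINS subunits overlapped between groups. Gins4 read 10.18, 10.59 and 10.69 and then 10.79, 10.84 and 10.63, a difference of 0.26 (SE 0.14), or 0.11 without control 1. Gins1 differed by 0.38 (SE 0.23) and Gins2 by 0.16 (SE 0.11), and these became 0.10 and 0.05 without control 1. Cdc45, the third part of the helicase, read 7.98, 8.12 and 8.14 in the controls, against 8.19, 8.41 and 8.15 with NPFF. Its difference was 0.17 (SE 0.09), or 0.12 without control 1, with NPFF 3 only 0.01 above control 3. Mcm10, which acts at the start of unwinding, read 8.69, 8.75 and 8.73 and then 8.78, 8.89 and 8.77, a difference of 0.09 (SE 0.06), or 0.07 without control 1. The kinase Cdc7 was even between groups, at -0.01 (SE 0.08), or 0.01 without control 1. Mcm8, a helicase of recombination outside the replicative ring, read 8.61, 8.56 and 8.38 and then 8.46, 8.38 and 8.40, a difference of -0.11 (SE 0.08), or -0.06 without control 1.

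The polymerase and primase genes had the smallest median difference of the 7 roles, 0.06, which was 0.01 without control 1, and 7 of 9 were higher. Pole, the catalytic subunit of the leading-strand polymerase, read 9.08, 9.42 and 9.46 in the controls, against 9.52, 9.57 and 9.57 with NPFF. Its difference was 0.23 (SE 0.11), or 0.11 without control 1. Pold3, an accessory subunit of the lagging-strand polymerase, read 9.35, 9.50 and 9.59 and then 9.64, 9.599 and 9.61, a difference of 0.14 (SE 0.08), or 0.07 without control 1. Pola1, the catalytic subunit of the polymerase that extends primers, read 9.40, 9.33 and 9.38 and then 9.47, 9.43 and 9.41. Its difference of 0.06 (SE 0.06) was 0.08 without control 1, which here was the highest control. Pold2, another subunit of the lagging-strand polymerase, read 9.47, 10.55 and 10.39 and then 10.51, 10.51 and 10.42. Its difference of 0.34 (SE 0.27) became 0.01 without control 1, and Pold1 went likewise from 0.23 to 0.01. The primase subunit Prim2 read 10.11, 9.92 and 9.78 and then 9.93, 9.79 and 9.82, a difference of -0.09 (SE 0.10), or -0.01 without control 1. Pola2, Prim1 and Pole2 had differences of 0.05, 0.02 and -0.03, each smaller than its SE, or 0.02, -0.02 and -0.01 without control 1.

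Among genes of the sliding clamp, its loader, the single-strand binding protein RPA and fragment joining, 9 of 10 were higher, with a median difference of 0.16, or 0.07 without control 1. Pcna, the clamp that holds polymerases on DNA, read 11.81, 11.92 and 11.95 in the controls, against 12.04, 12.002 and 12.09 with NPFF. Its difference was 0.15 (SE 0.07), or 0.11 without control 1, and no array left out moved it outside 0.11 to 0.18. Lig1, the ligase that seals the lagging strand, read 8.41, 8.77 and 8.78 and then 8.94, 8.93 and 8.86, a difference of 0.26 (SE 0.11), or 0.14 without control 1. Rpa2 read 7.19, 7.89 and 7.92 and then 8.06, 8.13 and 7.95, a difference of 0.38 (SE 0.20), or 0.14 without control 1. Its partners Rpa1 and Rpa3 both had differences of 0.16, with overlap, but without control 1 that of Rpa1 was 0.04 and that of Rpa3 0.20. The loader subunit Rfc3 was the most variable, at 7.59, 8.32 and 8.76 in the controls, against 8.70, 9.002 and 8.38 with NPFF. Its difference of 0.48 (SE 0.31) was 0.16 without control 1 and -0.06 against control 3 alone. Rfc1, the large loader subunit, read 8.93, 8.83 and 8.71 and then 8.79, 8.75 and 8.86, a difference of -0.02 (SE 0.08), or 0.04 without control 1. Rfc2 and Rfc5 differed by 0.21 and 0.14, and by -0.04 and 0.01 without control 1. Fen1, the flap nuclease, was even between groups by the feature used, at 0.00 (SE 0.08), or -0.03 without control 1. A second Fen1 feature of almost equal signal gave 0.35, with control 1 at 6.24, controls 2 and 3 at 7.06 and 7.01 and NPFF arrays at 7.07, 7.26 and 7.05, so the features of this gene disagreed.

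The 4 genes of nucleotide supply were each higher, with a median difference of 0.16, or 0.09 without control 1. Tk1, the thymidine kinase of the salvage pathway, read 9.48, 9.88 and 9.97 in the controls, against 10.23, 10.12 and 10.13 with NPFF. Its lowest NPFF array lay 0.14 above its highest control, the widest such gap of any member together with Gins3. Its difference was 0.38 (SE 0.13), or 1.30-fold, and 0.23 without control 1, from group values of 9.78 ± 0.26 and 10.16 ± 0.06 (SD, n = 3 each). Rrm1, the large subunit of ribonucleotide reductase, read 10.26, 10.40 and 10.44 and then 10.54, 10.50 and 10.48, a difference of 0.14 (SE 0.07), or 0.09 without control 1. The small subunit Rrm2 differed by 0.19 (SE 0.15) with overlap, and by 0.02 without control 1. Thymidylate synthase, Tyms, read 9.16, 8.92 and 9.05 and then 9.12, 9.07 and 9.04, a difference of 0.03 (SE 0.08), or 0.09 without control 1.

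Of the 6 measured regulators of S-phase entry, 5 were higher, with a median difference of 0.16, or 0.06 without control 1. E2f1, an activating E2F factor, read 8.43, 9.03 and 8.96 in the controls, against 9.15, 9.05 and 9.04 with NPFF. Its difference was 0.27 (SE 0.16), or 0.09 without control 1, and NPFF 3 lay 0.02 above control 2. Cdc25a, the phosphatase that activates Cdk2, read 8.30, 8.90 and 8.83 and then 8.93, 8.92 and 8.90, a difference of 0.24 (SE 0.16), or 0.05 without control 1. E2f2, another activator, differed by 0.24 (SE 0.18) and by 0.02 without control 1. E2f8, a repressor of E2F targets, read 10.18, 9.94 and 9.70 and then 9.90, 9.81 and 9.95. Its difference of -0.05 (SE 0.13) turned to 0.07 without control 1. Cyclin E1, encoded by Ccne1, and its partner Cdk2 had differences of 0.04 (SE 0.07) and 0.09 (SE 0.09), or 0.06 and 0.01 without control 1.

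The 4 genes that restore chromatin and its methylation behind the fork were each higher, with a median difference of 0.29, the largest of the 7 roles, or 0.12 without control 1. Dnmt1, the maintenance DNA methyltransferase, read 10.68, 10.81 and 10.84 in the controls, against 10.94, 10.93 and 10.94 with NPFF. The NPFF arrays had an SD of 0.01 and lay 0.09 above the highest control, and the difference was 0.16 (SE 0.07), or 0.11 without control 1. Uhrf1, which brings Dnmt1 to newly copied DNA, differed by 0.42 (SE 0.24), or 0.14 without control 1. Chaf1a, the large subunit of the histone chaperone CAF-1, read 6.90, 8.15 and 7.94 and then 8.06, 8.16 and 8.06. Its difference of 0.43 (SE 0.31) was 0.04 without control 1. Its partner Chaf1b read 9.10, 8.96 and 8.89 and then 9.08, 9.08 and 9.02, with control 1 as the highest array, and its difference of 0.08 (SE 0.08) was 0.14 without control 1.

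With quantile-normalized values, most of these differences changed in size without control 1, but the number of members that were higher did not. Control 1 was not left out under the other scalings, so whether this holds there is not known. Control 1 was the lowest of the 6 arrays for 37 of 53 members, or 69.8%, against 48.8% of all genes and 57.5% of genes of like signal. Over members it lay a median of 0.22 below the mean of controls 2 and 3, and over all genes 0.11 below. Without it the members' median difference was 0.07, with 45 of 53 higher, 42 of them among the 45 above. The median over all genes was then -0.02, with 39.1% higher. For 17 members control 1 lay at least 0.5 below the mean of controls 2 and 3. Their median difference was 0.31 with all controls and 0.08 without control 1, and for the other 36 the medians were 0.10 and 0.07. Control 1 is part of the difference with all controls, so the split itself raises the 0.31. These medians are a description and not a test. Leaving out a single array moved the difference by over 1.5 times or turned its sign for 47 of 53 members, and for 43 of them control 1 was such an array. The exceptions were Orc2, Mcm4, Mcm6, Pola1, Pcna and Dnmt1. The median SD over arrays was 0.16 in controls and 0.06 in NPFF for the members, and 0.14 and 0.07 for all genes. The part played by whatever set control 1 apart was not tested.

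**Figure D4:**
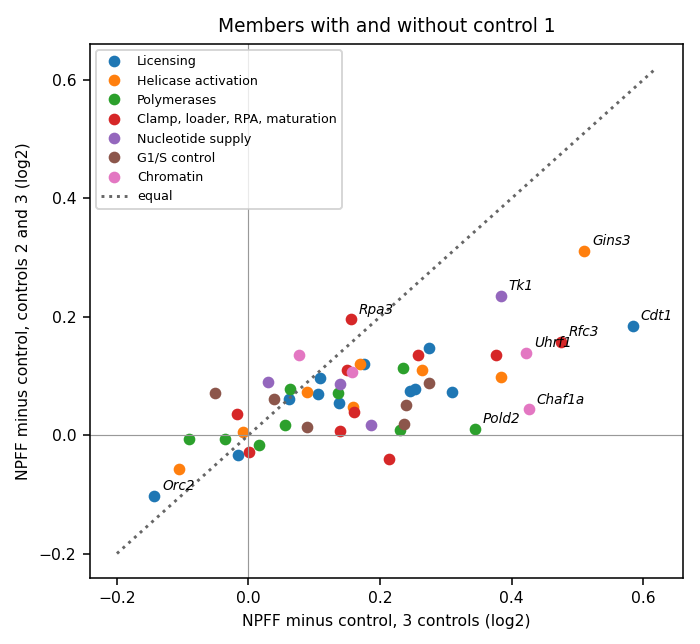
Each point is a member, coloured by role; the x axis is NPFF minus all 3 controls and the y axis NPFF minus controls 2 and 3, both in log2, and the dotted line marks equal values. Most points to the right lie well under the line, such as Cdt1 (0.58 and 0.18), Pold2 (0.34 and 0.01) and Chaf1a (0.43 and 0.04), while Gins3 and Tk1 have the highest values on the y axis, at 0.31 and 0.23.

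The NPFF arrays also differed among themselves. NPFF 2 was the highest of the 3 for 28 members and NPFF 3 the lowest for 32. The members' mean in NPFF 3, 9.13, was the nearest to controls 2 and 3. The gap between groups among the 18 members without overlap had a median of 0.03 and ran from 0.002 to 0.14.

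Further genes of replication and S phase outside the set, among them regulators such as E2F factors and Rb1, gave a more even division. Of 40 such genes, 38 were measured, 26 were higher and 12 lower, and the median difference was 0.07, or 0.04 without control 1. Groups did not overlap for 10 higher genes, or 26.3%, and 4 lower genes, or 10.5%, against 3.67% and 4.92% of all genes. The 4 lower genes were the regulators Rb1, E2f3 and Rbl2 and the polymerase subunit Pole4. The regulators E2f7 and Tfdp1 were among the 10 higher genes. By limma 0 had an adjusted p under 0.05, and 8 (6 higher and 2 lower) had an unadjusted p under 0.05, or 21.1% against 2.51% of all genes. The 2 lower ones were Rb1 and E2f3, and E2f7 was among the 6 higher. Wdhd1, which tethers the primase-polymerase to the helicase, read 9.03, 8.99 and 9.11 in the controls, against 9.26, 9.29 and 9.26 with NPFF, a difference of 0.23 (SE 0.06), or 0.22 without control 1. Dut, which keeps uracil out of DNA, differed by 0.36 (SE 0.10), or 0.29 without control 1, and Rnaseh2a, which removes RNA from DNA, by 0.22 (SE 0.08), or 0.17. The retinoblastoma gene Rb1, which holds E2F factors inactive, read 10.31, 10.20 and 10.06 in the controls, against 9.86, 9.92 and 10.04 with NPFF. Its difference was -0.25 (SE 0.09), or -0.19 without control 1. Of 30 of these genes with a promoter window, 12 held E2F letters, or 40%, against 43.5% of members and 3.29% of protein-coding genes.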

How the data were processed

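Transcript levels were measured on 6 Affymetrix whole-transcript arrays, 3 control and 3 NPFF, grouped by the sample titles. The deposited table holds log2 intensities, a scale inferred because values span 4.59 to 14.0; how the authors corrected background and normalized is not given in the sources used here. Ranked intensities differed from their 6-array average by at most 0.17 log2, so quantile normalization over all 33794 features was applied. A platform annotation table paired 23521 features with exactly 1 symbol; the feature with the highest mean signal was kept for each gene. No dim features were removed.

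The group difference was fitted in limma 3.58.1 under R 4.3.3, on group alone, with 4 residual and 2.49 prior degrees of freedom, two-sided, adjusted by Benjamini-Hochberg over 22180 genes at 0.05. The code was tested on simulated data. Members and lists were chosen with earlier results of these data known, so counts and medians are given without a test of the set. In each role the members with no overlap, the highest and the lowest difference and the strongest signal are given in every array. At most 6 in a role are so given, by smallest p, and others by difference. Other replication genes are counted, with values for the 4 of smallest p. Among those with no overlap, the 4 lower genes and the regulators E2f7 and Tfdp1 are also named, so that naming is not by p alone. The number of arrays limits precision. Alternatives covered scaling, features, dim genes, the replicate number, array weights and left-out arrays.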

Additional observations from a re-analysis of the deposited data

How the results depend on the processing

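Over 15 alternatives, 43 to 47 of 53 members were higher in NPFF and the median difference stayed above 0, and 38 members were higher in every one. Members higher with no overlap numbered 7 as deposited, 2 with arrays centred on medians and 32 against control 3 alone, which compares fewer arrays. Each array was also left out in turn, always from the values quantile-normalized over all 6 arrays. This gave 18 to 26 such members, medians of 0.07 to 0.19 and 44 to 46 members higher, with 0 called. The share of all genes higher with no overlap was then 5.52% to 11.8%, and of genes of like signal 9.69% to 19.5%, so it was larger there too with fewer arrays. With array weights, which gave control 1 a weight of 0.0773 and control 3 one of 22.6, limma called 1127 genes and 2 members, Gins3 and Chaf1b (adjusted p = 0.0411 for each), and with weights fitted gene by gene 0. Replicate numbers did not pair the arrays (same-number correlations of deviations 0.23, 0.45 and -0.33), and with the replicate number as a block the median was 0.16, with 45 members higher and 0 called. Over all 53 members, signs turned for 1 with cyclic loess, Tyms (-0.0059), 1 as deposited (Cdc7) and 2 with arrays centred on medians (Orc1 and Cdc7). With array weights 11 turned, namely Mcm8 (0.035), Prim2 (0.071), Rfc3 (-0.048), Rfc1 (0.090), E2f8 (0.19), Orc1, Gmnn, Prim1, Rfc2, Fen1 and Rrm2. With gene-by-gene weights 6 turned, namely Prim2 (0.027), Rfc1 (0.056), E2f8 (0.12), Prim1, Rfc2 and Fen1. Against control 3 alone 10 turned, namely Mcm8 (0.033), Prim2 (0.064), Rfc3 (-0.062), Rfc1 (0.094), E2f8 (0.19), Gmnn, Prim1, Rfc2, Fen1 and Rrm2. With single arrays left out 8 turned at least once: Rfc1 ranged from -0.073 to 0.035, E2f8 from -0.17 to 0.071 and Tyms from -0.032 to 0.090, and the others were Orc1, Cdc7, Prim1, Rfc2 and Fen1. The cause of these shifts was not tested, and 3 arrays a group limit what could be detected.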

Other observations

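Features that name a member together with a second gene cannot be assigned to either. The feature of Rfc4, a clamp loader subunit, also names the translation factor Eif4a2. It read 10.67, 10.17 and 10.42 in the controls, against 10.39, 10.45 and 10.35 with NPFF. The feature of Ccne2, cyclin E2, also names Ints8 and read 9.37, 8.997 and 8.87 and then 9.07, 8.90 and 9.22. Both had overlapping groups, with differences of -0.03 and -0.01, and control 1 was the highest array for each. A feature shared by Mcm7 and the microRNA gene Mir25, which lies within Mcm7, read 6.87, 7.36 and 7.29 and then 7.35, 7.29 and 7.22, a difference of 0.11.

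Second features of Pole, Rpa1 and Rrm2 had weak signal, with means under 6.2, and differences of -0.04, 0.06 and 0.02. The second feature of Rpa3 read 8.18, 8.07 and 8.26 in the controls, against 8.45, 8.39 and 8.31 with NPFF. Its groups did not overlap and its difference was 0.21, whereas the feature used gave 0.16 with overlap.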
